A study of Homo sapiens with 6 samples.

Results

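The genes described here carry out the integrated stress response and the unfolded protein response, and were taken as a list of 35 symbols looked up in the deposited expression table through its Ensembl identifiers. The table holds 34 of the 35 among its 19498 genes; VLDLR was not analysed here. Of the 34, 33 had a value high enough to be tested (10 or more in at least 3 of 6 libraries), as did 16658 genes in all. The list falls into 22 ATF4-type genes (20 tested), which are the stress-induced transcription factors and the genes they switch on, and 13 genes of the endoplasmic reticulum (ER), which are XBP1, chaperones and folding enzymes, and factors that help remove misfolded protein (13 tested).

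In the integrated stress response, kinases that sense amino acid shortage, missing haem, viral RNA or misfolded ER protein phosphorylate the translation factor eIF2. This lowers protein synthesis in general but raises translation of the ATF4 mRNA, and ATF4 protein then activates genes of amino acid synthesis, redox balance and feedback control. The unfolded protein response has further arms, IRE1 with XBP1 and ATF6, which raise ER chaperones and ER-associated degradation. Genes driven by ATF4 and ER chaperones can therefore move together or apart, and in erythroid cells the haem-sensing eIF2 kinase ties the response to haem supply.

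The study measured RNA in 6 libraries of K562, an erythroleukaemic line with the BCR-ABL1 fusion, derived from chronic myeloid leukaemia. A set of 3 libraries is labelled as a knockout of ACK (the non-receptor tyrosine kinase and Cdc42 effector encoded by TNK2), and 3 are labelled WT; each set is numbered biological replicate 1 to 3. Neither set had a drug or stress treatment in the labels, and all cells were kept in RPMI medium with serum and 10 mM glutamine. The labels do not say whether the knockout libraries come from 1 clone, nor whether a number marks a separate culture or day, so p-values measure the spread between these libraries, which may be technical.

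The values are normalised read counts from the authors' table. TNK2 mRNA was 741.2, 505.8 and 597.7 in the KO-labelled libraries and 829.7, 612.5 and 641.6 in WT (means 614.9 ± 118.7 and 694.6 ± 117.9, SD, n = 3 each; two-sided exact permutation p = 0.4, the smallest possible being 0.1). The groups overlapped, so the mRNA level does not check the genotype labels, and the libraries are called KO-labelled below. Values per library sum to 43.478 to 49.4506 M in the KO-labelled set and 46.6902 to 53.3019 M in WT, and read depth is unknown. All 13 K562 marker genes were above 0 in every library, summing to 110894 to 158544.5 in the KO-labelled set and 94941 to 160181 in WT, with replicate 1 the lowest in both sets. Of 14 markers of other cell types, 9 are in the table, with sums of 8087 to 9495 in the KO-labelled libraries and 5396 to 7028 in WT; their part in the results below was not tested. Mitochondrially encoded genes took 8.79%, 9.29% and 9.9% of the sum in KO-labelled replicates 1, 2 and 3, against 10.6%, 9.88% and 10.1% in WT. Replicate 1 stood apart from replicates 2 and 3 in both sets: 8039 of 16658 genes (48.3%) differed between replicate 1 and the mean of the others, whereas 0 (0.0%) differed between replicates 2 and 3 by limma with Benjamini-Hochberg adjustment, where 1775 had an unadjusted p below 0.05.

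Promoters were searched for the known DNA elements of both responses. RefSeq promoter windows (GRCh38.p14, from 250 bases before to 50 after a start) were at hand for 30 of the 35 genes, VLDLR among them. A C/EBP-ATF response element of the form TGATGNAA, read on both strands, was present in 4 of 17 ATF4-type genes (23.5%; ATF3, CEBPG, CHAC1 and ASNS), in 1 of 13 ER genes (7.69%; HERPUD1) and in 4.46% of the 27305 genes with a window. The ER stress element, CCAAT then 9 bases then CCACG, was present in 0 of 17 ATF4-type genes, in 6 of 13 ER genes (46.2%; XBP1, HSPA5, HSP90B1, PDIA6, CRELD2 and CALR) and in 0.0916% of all genes. Its shorter relative ATTGG, 1 base, CCACG, added to the search after the data were seen, was present in 0 of 17 ATF4-type genes, 3 of 13 ER genes (23.1%; SDF2L1, HYOU1 and HERPUD1) and 0.0696% of all genes. The core TGACGTGG was found in HYOU1 alone of the 30 (1 of 13 ER genes, 7.69%, against 0.927% of all genes), where it overlaps the shorter ER element.

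The windows below show the first kind of element in genes that were higher in replicate 1, then HERPUD1, an ER gene that holds both kinds, then 3 ER genes with the long ER element. Each is written 5′ to 3′ on the gene's strand, and capitals mark the matched element. ASNS lies at chr7:97872429-97872516 (minus strand), CHAC1 at chr15:40953222-40953309 (plus strand), CEBPG at chr19:33374031-33374112 (plus strand) and ATF3 at chr1:212565176-212565263 (plus strand). HERPUD1 lies at chr16:56931926-56932013 (plus strand) and chr16:56931985-56932075 (plus strand), HSPA5 at chr9:125241351-125241449 (minus strand), XBP1 at chr22:28800570-28800661 (minus strand) and CALR at chr19:12938359-12938442 (plus strand).
ASNS: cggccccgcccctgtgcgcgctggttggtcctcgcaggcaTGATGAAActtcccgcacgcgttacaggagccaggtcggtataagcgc
CHAC1: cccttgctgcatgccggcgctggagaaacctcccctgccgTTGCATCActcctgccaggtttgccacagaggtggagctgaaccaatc
CEBPG: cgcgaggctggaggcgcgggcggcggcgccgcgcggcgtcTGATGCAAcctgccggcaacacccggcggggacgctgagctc
ATF3: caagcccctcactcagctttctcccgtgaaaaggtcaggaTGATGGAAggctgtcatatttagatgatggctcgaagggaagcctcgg
HERPUD1: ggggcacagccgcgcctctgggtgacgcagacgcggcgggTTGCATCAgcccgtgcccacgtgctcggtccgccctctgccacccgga
HERPUD1: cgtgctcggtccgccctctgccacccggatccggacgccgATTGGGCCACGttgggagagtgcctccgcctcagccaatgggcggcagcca
HSPA5: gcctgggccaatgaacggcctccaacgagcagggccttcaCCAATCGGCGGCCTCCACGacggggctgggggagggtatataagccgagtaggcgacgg
XBP1: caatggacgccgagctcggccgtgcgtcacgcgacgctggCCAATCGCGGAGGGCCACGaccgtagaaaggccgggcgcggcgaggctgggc
CALR: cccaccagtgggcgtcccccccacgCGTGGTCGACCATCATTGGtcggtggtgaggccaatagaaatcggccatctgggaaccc
A match describes the letters in the window only. CHAC1 and HERPUD1 carry the first element on the opposite strand (TTNCATCA), and CALR carries the long ER element on the opposite strand.

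Replicate 1 was compared with the mean of replicates 2 and 3 over both genotypes, in a fit with genotype and replicate number. All 20 tested ATF4-type genes were higher in replicate 1, with a median log2 difference of 1.49 and a range of 0.58 to 3.15, against 23.5% of all genes called higher, 24.8% called lower, and a median of 0.03 over all genes. The 13 ER genes split: 5 were higher (XBP1, DNAJB9, HYOU1, HERPUD1 and SEL1L), 5 were lower (HSP90B1, SDF2L1, PDIA4, CRELD2 and CALR) and 3 did not pass (HSPA5, PDIA6 and MANF), with a median of 0.09. In bulk RNA, fewer cells expressing a gene and less RNA per cell cannot be told apart. The contrast was present in each genotype, the median of the 20 ATF4-type genes being 1.37 in the KO-labelled set and 1.75 in WT. Both replicate 1 libraries lay above the other 4 for 18 of the 20, where 20.0% of all genes did so; PSPH and ALDH1L2 were the exceptions. Both replicate 1 libraries lay above the other 4 for 5 ER genes and below them for 3, and 23.3% of all genes lay below. With libraries scaled to the same sum the calls over all genes were 5365 higher and 2982 lower, against 3909 and 4130 here, and the median over all genes was 0.18; the 20 calls of the ATF4-type genes held. Replicate 1 was singled out from these same libraries, so these p-values describe the 6 libraries only.

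**Figure D1:**
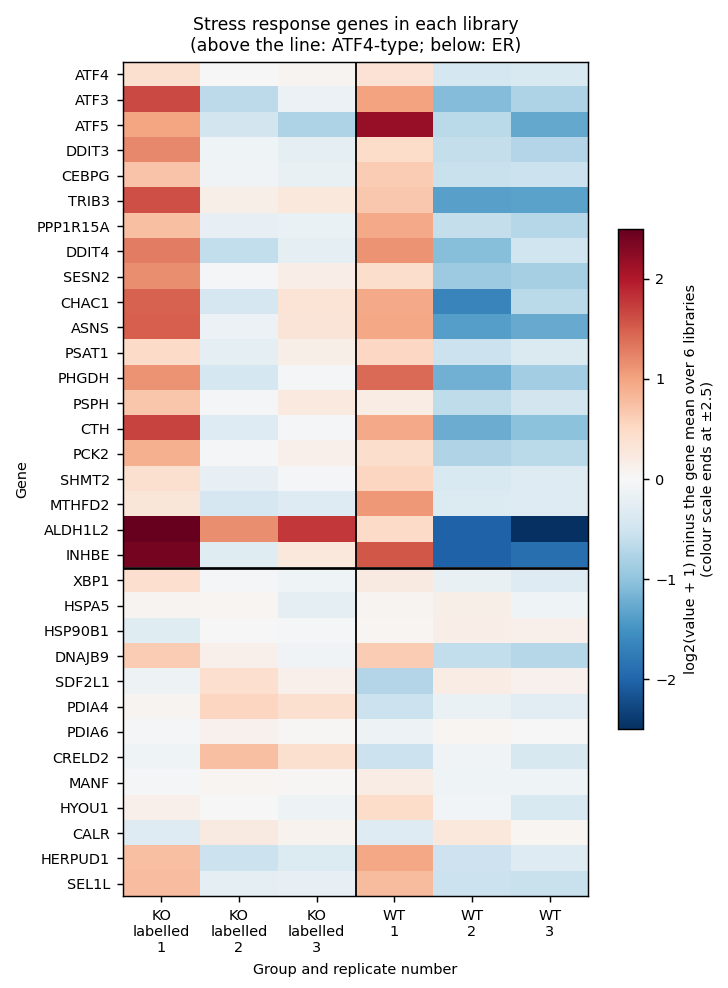
Colour shows log2(value + 1) of each tested gene in each library minus the gene's mean over the 6 libraries, with the 20 ATF4-type genes above the line and the 13 ER genes below it; KO-labelled replicates 1 to 3 are on the left and WT replicates 1 to 3 on the right. The replicate 1 columns are red across the ATF4-type rows in both genotypes, and among the ER rows only some, such as HERPUD1 and SEL1L, follow.

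The transcription factors differed in how far they were raised. ATF4, the central factor, whose control is largely at translation, had 18342, 13736 and 14402 in KO-labelled replicates 1, 2 and 3, against 17740.1, 10217 and 10565.5 in WT replicates 1, 2 and 3; both replicate 1 values were the highest, and the difference was the smallest of the 20 (log2 difference 0.58, SE 0.09, adjusted p = 0.00249, 1.49-fold). Without WT replicate 1 the difference was 0.38, still called. ATF3, a stress-induced repressor and activator, had 1428, 287.5 and 411.5 in the KO-labelled libraries and 912, 212 and 263 in the WT libraries. Its replicate 1 libraries stood far above the rest (log2 difference 2.00, SE 0.13, adjusted p = 0.00015, 3.99-fold). DDIT3, which encodes the pro-apoptotic factor CHOP, had 4138.5, 1661 and 1532 in the KO-labelled libraries and 2453.5, 1192.5 and 1070.2 in the WT libraries, again with both replicate 1 libraries on top (log2 difference 1.25, SE 0.09, adjusted p = 0.00018, 2.37-fold). CEBPG, a partner of ATF4 on DNA, had 7347, 4242 and 3978 in the KO-labelled libraries and 7011.5, 3051 and 3112 in the WT libraries. CEBPG was 2.02-fold higher in replicate 1 (log2 difference 1.01, SE 0.09, adjusted p = 0.000301). ATF5, a relative of ATF4 that is likewise controlled at translation, had 7021, 2556 and 2080.0 in the KO-labelled libraries and 15984, 2212 and 1462 in the WT libraries. The highest of its 6 values was WT replicate 1, more than the KO-labelled replicate 1 value, and the difference between replicate 1 and the others was 5.2-fold (log2 difference 2.38, SE 0.30, adjusted p = 0.000952). NUPR1, a small stress-induced chromatin protein, was too low to test: it was listed at 23.5, 0 and 0 in the KO-labelled libraries and 18.1, 1.0 and 0 in WT, so it was highest in replicate 1 of each set.

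The feedback and growth-control genes rose together, all 5 of 5. TRIB3, a pseudokinase that restrains ATF4 and AKT signalling, had 14842, 5435 and 5847 in the KO-labelled libraries and 7833, 1894 and 1935 in the WT libraries. TRIB3 was 3.28-fold higher in replicate 1 (log2 difference 1.71, SE 0.14, adjusted p = 0.000192). PPP1R15A (GADD34), which directs the phosphatase that reverses eIF2 phosphorylation, had 8427, 4329 and 4495 in the KO-labelled libraries and 9649, 3327 and 3052 in the WT libraries. PPP1R15A was 2.4-fold higher in replicate 1 (log2 difference 1.27, SE 0.14, adjusted p = 0.000597). For both, the replicate 1 libraries did not overlap the others. DDIT4 (REDD1) and SESN2 both inhibit mTORC1 signalling. DDIT4 had 13869, 3687 and 4859 in the KO-labelled libraries and 12345, 2733 and 4003 in the WT libraries (log2 difference 1.81, SE 0.08, adjusted p = 0.000112, 3.5-fold), and SESN2 had 6802, 3014 and 3439 in the KO-labelled libraries and 4155, 1629.6 and 1709.8 in the WT libraries. SESN2 was 2.29-fold higher in replicate 1 (log2 difference 1.20, SE 0.08, adjusted p = 0.000175). CHAC1, which degrades glutathione, had 493, 131 and 223 in the KO-labelled libraries and 340.2, 55.93 and 110.5 in the WT libraries. CHAC1 was 3.51-fold higher in replicate 1 (log2 difference 1.81, SE 0.20, adjusted p = 0.000579). DDIT4 and CHAC1 were higher in replicate 3 than in replicate 2 in both genotypes, but neither passed the adjusted threshold for that difference, as no gene did.

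The enzymes of amino acid synthesis followed the same order, 6 of 6. ASNS, which makes asparagine, had 26935, 8639 and 11978 in the KO-labelled libraries and 18847, 3708 and 4019.8 in the WT libraries. ASNS was 3.59-fold higher in replicate 1 (log2 difference 1.85, SE 0.19, adjusted p = 0.000389). PHGDH, PSAT1 and PSPH are the successive enzymes of serine synthesis. PHGDH had 12019, 4045 and 5333 in the KO-labelled libraries and 14592, 2396 and 3016 in the WT libraries (log2 difference 1.91, SE 0.21, adjusted p = 0.000557, 3.75-fold), with its highest value in WT replicate 1. PSAT1 had 6752, 4117 and 5404 in the KO-labelled libraries and 6911, 3361 and 3765 in the WT libraries (log2 difference 0.74, SE 0.11, adjusted p = 0.00188, 1.67-fold), and PSPH had 3538, 2115 and 2593 in the KO-labelled libraries and 2481, 1409 and 1589 in the WT libraries. PSPH was 1.58-fold higher in replicate 1 (log2 difference 0.66, SE 0.08, adjusted p = 0.000794). The WT replicate 1 value of PSPH lay below KO-labelled replicate 3, so its replicate groups overlapped, while those of the other 5 enzymes did not. CTH, which makes cysteine in the transsulphuration pathway, had 3571, 887 and 1078 in the KO-labelled libraries and 2135, 473 and 548 in the WT libraries. CTH was 3.91-fold higher in replicate 1 (log2 difference 1.97, SE 0.10, adjusted p = 0.000112). PCK2, the mitochondrial form of the gluconeogenic enzyme, had 6019, 3142 and 3541 in the KO-labelled libraries and 4378, 1921 and 2020.0 in the WT libraries. PCK2 was 2.0-fold higher in replicate 1 (log2 difference 1.00, SE 0.09, adjusted p = 0.000275).

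The mitochondrial folate enzymes were higher as well, 3 of 3, by unequal amounts. SHMT2, which makes glycine and one-carbon units from serine, had 15283, 10143 and 11382 in the KO-labelled libraries and 16877, 8927 and 9299 in the WT libraries. SHMT2 was 1.62-fold higher in replicate 1 (log2 difference 0.70, SE 0.09, adjusted p = 0.00118). MTHFD2, the next enzyme of the path, had 17131, 10300.1 and 11083.5 in the KO-labelled libraries and 29286, 10899 and 11052 in the WT libraries. MTHFD2 was 2.07-fold higher in replicate 1 (log2 difference 1.05, SE 0.15, adjusted p = 0.00156); WT replicate 1 was the highest of its 6 values, and without it the difference was 0.68, still called. ALDH1L2, a mitochondrial formyl-folate dehydrogenase, had 2852, 477.5 and 732 in the KO-labelled libraries and 296, 52.01 and 5.169 in the WT libraries. Within each genotype its replicate 1 value was the highest, but WT replicate 1 was below every KO-labelled library, and its standard error was the widest of the members (log2 difference 3.15, SE 0.71, adjusted p = 0.00986, 8.9-fold). INHBE, the secreted activin subunit beta E, had 4349.8, 676 and 1000.2 in the KO-labelled libraries and 2433, 203 and 223 in the WT libraries. Its replicate 1 values exceeded all others (log2 difference 2.95, SE 0.24, adjusted p = 0.000205, 7.75-fold).

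**Figure D2:**
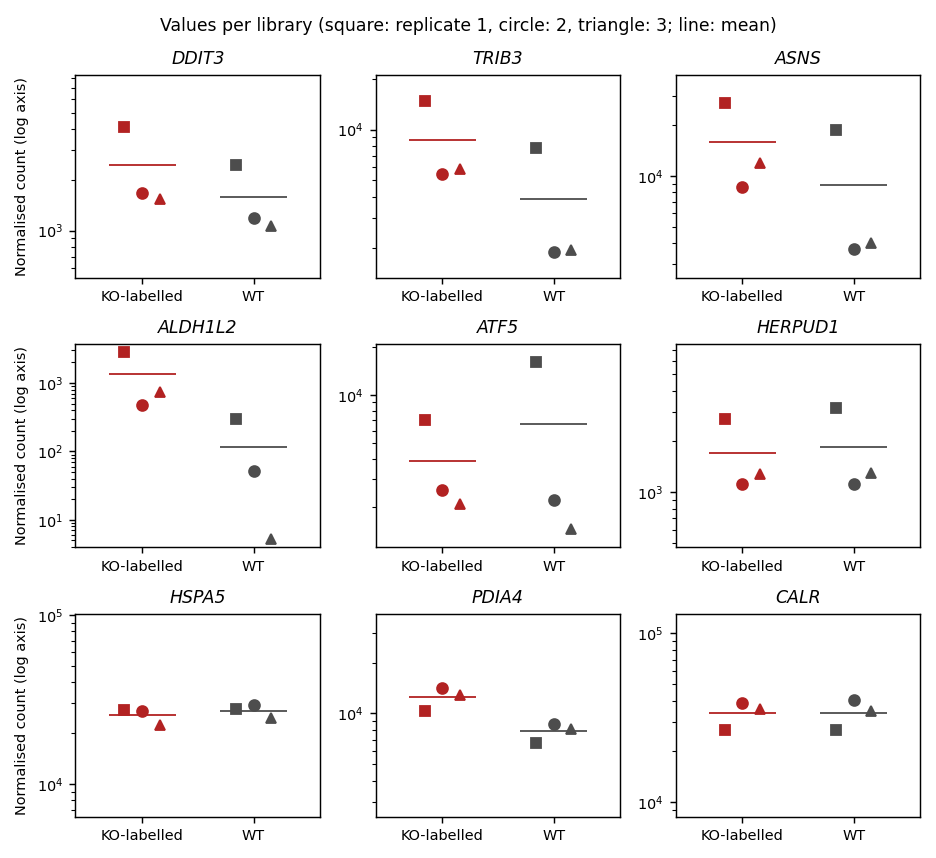
Each panel gives the normalised value of 1 gene on a log axis, KO-labelled libraries on the left and WT on the right, with squares for replicate 1, circles for replicate 2, triangles for replicate 3 and a line at the group mean (n = 3 each). Squares lie on top in both groups for DDIT3, TRIB3, ASNS, ALDH1L2, ATF5 and HERPUD1, and at the bottom in both groups for PDIA4 and CALR; the KO-labelled and WT values do not overlap for ALDH1L2 and PDIA4.

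Among the ER genes, XBP1 and both degradation genes were higher in replicate 1, with 2 of the 10 chaperones and folding enzymes. XBP1, whose spliced mRNA encodes the factor of the IRE1 arm (splice forms are not separated here), had 5458, 3910.5 and 3788 in the KO-labelled libraries and 4771, 3585.5 and 3262 in the WT libraries. XBP1 was 1.41-fold higher in replicate 1 (log2 difference 0.49, SE 0.07, adjusted p = 0.00126). HERPUD1, which organises the ER degradation complex, had 2726, 1124 and 1275 in the KO-labelled libraries and 3173.5, 1125 and 1301 in the WT libraries, and its 2 replicate 1 libraries were each above the others (log2 difference 1.29, SE 0.09, adjusted p = 0.000171, 2.44-fold). SEL1L, the adaptor of the ubiquitin ligase HRD1, had 7058, 3489.8 and 3572 in the KO-labelled libraries and 7136, 2844 and 2814 in the WT libraries. SEL1L was 2.25-fold higher in replicate 1 (log2 difference 1.17, SE 0.09, adjusted p = 0.000188). DNAJB9, a co-chaperone that also holds IRE1 inactive, had 990.2, 698 and 601 in the KO-labelled libraries and 996, 419 and 391 in the WT libraries. DNAJB9 was 1.94-fold higher in replicate 1 (log2 difference 0.95, SE 0.17, adjusted p = 0.00361); without WT replicate 1 its difference was 0.61, still called. HYOU1, a large ER chaperone related to HSP70, had 13753.5, 12653 and 11523 in the KO-labelled libraries and 17381, 12057 and 9733 in the WT libraries. HYOU1 was 1.35-fold higher in replicate 1 (log2 difference 0.43, SE 0.11, adjusted p = 0.0175). Leaving out WT replicate 1 gave HYOU1 a difference of 0.19, and leaving out KO-labelled replicate 1 gave 0.68, called in both cases; without the intensity trend the HYOU1 call was lost (adjusted p = 0.105).

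The chaperones and folding enzymes were mixed. The median over the 10 chaperones and folding enzymes was a log2 difference of -0.17, with 2 higher, 5 lower and 3 that did not pass. HSPA5 (BiP), the main ER chaperone and the usual marker of the unfolded protein response, had 27484, 27180.2 and 22345 in KO-labelled replicates 1, 2 and 3, against 27598, 29112 and 24389.7 in WT replicates 1, 2 and 3. The replicate 1 values lay inside the range of the others (log2 difference 0.10, SE 0.06, adjusted p = 0.19). Without WT replicate 1 the difference was larger, 0.16, in a fit that leaves 1 library for replicate 1. Under both other scalings HSPA5 was called higher. The difference was 0.26 with libraries scaled to the same sum (adjusted p = 0.012) and 0.32 with quantile normalisation (adjusted p = 0.0044). CALR, a calcium-binding lectin chaperone, had 26733, 38842 and 35412 in the KO-labelled libraries and 26778, 40162 and 34701 in the WT libraries. Both replicate 1 values were below the other 4 (log2 difference -0.48, SE 0.06, adjusted p = 0.000773, 1.39-fold lower). SDF2L1, a partner of BiP, had 3582, 5277 and 4291 in the KO-labelled libraries and 2371, 4472 and 4239 in the WT libraries (log2 difference -0.64, SE 0.12, adjusted p = 0.00391, 1.56-fold lower), and its difference was -0.41 without WT replicate 1, still called. PDIA4, a disulphide isomerase, had 10277, 14213 and 12891.5 in the KO-labelled libraries and 6717, 8717 and 8039 in the WT libraries, with replicate 1 lowest within each genotype (log2 difference -0.36, SE 0.06, adjusted p = 0.00309, 1.28-fold lower). With equal library sums the PDIA4 difference was -0.21 (adjusted p = 0.0273), and under quantile normalisation it was -0.17 and not called (adjusted p = 0.0606). CRELD2, a secreted ER stress protein, had 645, 1167 and 919 in the KO-labelled libraries and 477, 651 and 530.4 in the WT libraries (log2 difference -0.49, SE 0.13, adjusted p = 0.0164). HSP90B1 (GRP94), the ER member of the HSP90 family, had 34847, 43247 and 41697 in the KO-labelled libraries and 44409.5, 48721 and 47408 in the WT libraries (log2 difference -0.20, SE 0.06, adjusted p = 0.0396).

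The lower calls of HSP90B1 and CRELD2 did not hold with every library left out, nor under every setting. HSP90B1 was not called without KO-labelled replicate 2 (adjusted p = 0.21), KO-labelled replicate 3 (0.198), WT replicate 2 (0.121) or WT replicate 3 (0.125). Leaving out both replicate 2 or both replicate 3 libraries also lost the HSP90B1 call (adjusted p = 0.244 and 0.121). Without KO-labelled replicate 1, which leaves 1 library for replicate 1, its difference shrank to -0.11. It was also not called with equal library sums (-0.05, adjusted p = 0.567) or without the trend (0.161), and its direction turned under quantile normalisation (0.02). CRELD2 was not called without KO-labelled replicate 2 (adjusted p = 0.0578), KO-labelled replicate 3 (0.0507) or both replicate 2 libraries (0.169). Its difference shrank to -0.30 without KO-labelled replicate 1, which leaves 1 library for replicate 1. The CRELD2 call was also lost with equal library sums (-0.34, adjusted p = 0.0584) and without the trend (0.0555). PDIA6, another disulphide isomerase, had values of 16395 to 18298 in the KO-labelled set and 15557 to 17525 in WT and did not pass (log2 difference -0.13, SE 0.06, adjusted p = 0.0939); it was called lower without KO-labelled replicate 1 (-0.15, adjusted p = 0.0385). MANF, a secreted ER stress protein, had 1162, 1254 and 1236 in the KO-labelled libraries and 1366, 1119.8 and 1127 in the WT libraries (log2 difference 0.09, SE 0.11, adjusted p = 0.533); without KO-labelled replicate 1 it was called higher (0.28, adjusted p = 0.0475).

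**Figure D3:**
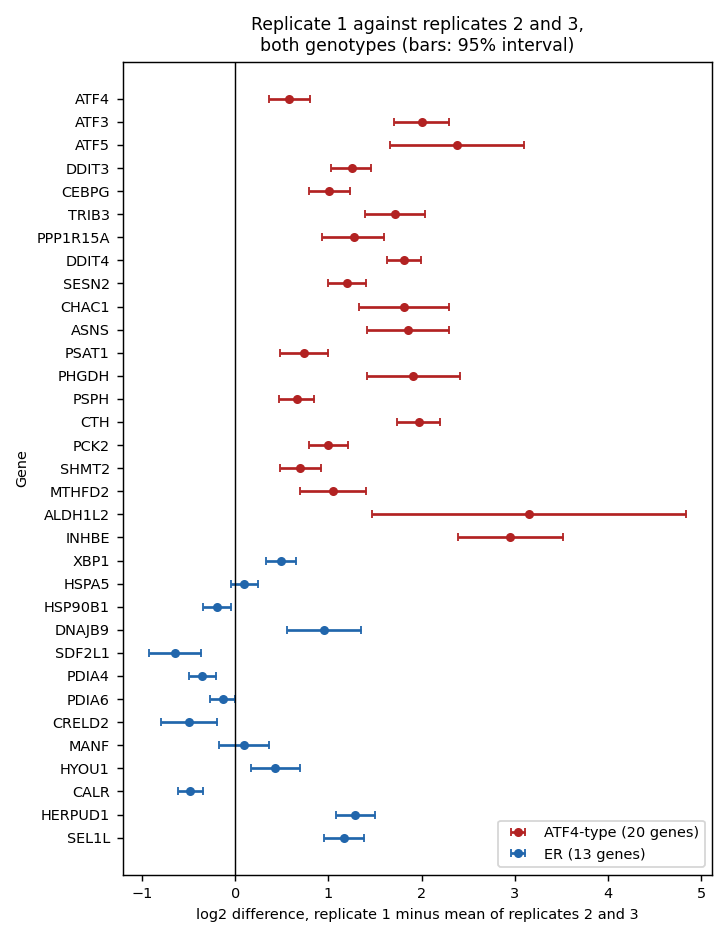
Points give the log2 difference of replicate 1 minus the mean of replicates 2 and 3 for each of the 33 tested genes, with bars for its 95% confidence interval; ATF4-type and ER genes are in separate blocks. All 20 ATF4-type points lie above 0, from 0.58 (ATF4) to 3.15 (ALDH1L2), and the ER points lie on both sides, from -0.64 (SDF2L1) to 1.29 (HERPUD1).

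The comparison of the KO-labelled with the WT libraries asks whether loss of ACK goes with a change in these responses. In the fit of group means, 0 of the 33 genes passed, against 10.3% of all genes (1721, of which 894 or 5.37% were higher and 827 or 4.96% lower); 3 had an unadjusted p below 0.05 by limma (ALDH1L2, PDIA4 and CRELD2). In the same fit 18 of 20 ATF4-type genes were above 0, with a median log2 difference of 0.58 against -0.02 over all genes, and 8 of 13 ER genes were, with a median of 0.06. The ATF4-type median became 0.15 when KO-labelled replicate 1 was left out. Dropping WT replicate 1 gave a median of 1.00, dropping WT replicate 2 gave 0.25, and dropping WT replicate 3 gave 0.34. Without KO-labelled replicate 1, ATF3, PPP1R15A, DDIT4, PHGDH and SHMT2 turned below 0. The spread between replicate 1 and the others is part of the error in this fit. Leaving out WT replicate 1 gave 3 calls, TRIB3 (2.02, adjusted p = 0.0306), ASNS (1.87, adjusted p = 0.0446) and ALDH1L2 (5.79, adjusted p = 0.0204), and leaving out KO-labelled replicate 1 gave 1, PDIA4 (0.80, adjusted p = 0.039).

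Libraries with the same number deviated together across genes, less clearly for replicates 2 and 3. KO-labelled replicate 3 correlated at 0.3416 with WT replicate 3 and at 0.2811 with WT replicate 2. The labels do not say that a number marks a pair. With the replicate number as a block, 14 of 20 ATF4-type genes passed as higher in the KO-labelled libraries and 0 as lower. Over all genes this fit called 6612 (39.7%), 19.7% higher and 20.0% lower, and 4193 higher and 2379 lower with libraries scaled to the same sum, against 3275 and 3337. Of the 13 ER genes, 2 passed as higher (PDIA4 and CRELD2), 1 as lower (HSP90B1), and 10 did not pass. The 6 ATF4-type genes that did not pass were ATF5, PPP1R15A, PSAT1, PHGDH, SHMT2 and MTHFD2. Of all 20 tested ATF4-type genes, 14 were higher in the KO-labelled library of each of the 3 numbers, as were 31.8% of all genes. They were the same 14 that passed, and the blocked fit favours genes with 1 direction at every number. Considering replicates 2 and 3 alone, both KO-labelled libraries lay above both WT libraries for 17 of the 20 ATF4-type genes and 6 of the 13 ER genes, against 32.1% of all genes. Without the replicate 1 libraries, and without a block, 13 ATF4-type genes and 4 ER genes passed as higher (14.6% of all genes did), and 11 of the 13 were among the 14; the 4 ER genes were DNAJB9, PDIA4, CRELD2 and SEL1L.

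Among the factors, the fit with the block gave DDIT3 as higher in the KO-labelled libraries (values above, log2 difference 0.58, SE 0.09, adjusted p = 0.00214, 1.5-fold). ATF3 was higher too (log2 difference 0.58, SE 0.12, adjusted p = 0.00844, 1.49-fold), but lost its call without KO-labelled replicate 3 (adjusted p = 0.0512). In the fit of group means no factor passed, with adjusted p from 0.522 to 0.943. The values in the rest of the paragraph are from the blocked fit. ATF4 (log2 difference 0.31, SE 0.09, adjusted p = 0.0297, 1.24-fold) and CEBPG (log2 difference 0.30, SE 0.09, adjusted p = 0.0337, 1.23-fold) were higher by less. For ATF4 the replicate 1 libraries were nearly level between genotypes (18342 KO-labelled, 17740.1 WT), while replicates 2 and 3 were higher in the KO-labelled set. ATF5 was the exception among the factors, its WT replicate 1 value being above its KO-labelled one, and it did not pass (log2 difference -0.16, SE 0.29, adjusted p = 0.693). Without KO-labelled replicate 1 or WT replicate 1 its direction turned and it passed as higher (0.36, adjusted p = 0.00445 and 0.00472). Either omission leaves the genotype difference to replicates 2 and 3. Over all 16658 genes those fits called 3733 and 3791 higher, and 4086 and 4041 lower. The calls of ATF4, CEBPG and DDIT4 were lost when KO-labelled replicate 2, KO-labelled replicate 3, WT replicate 2 or WT replicate 3 was left out, with adjusted p from 0.0704 to 0.191.

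Of the effectors, with the block as in the rest of the paragraph, TRIB3 was higher in the KO-labelled libraries at every number (log2 difference 1.35, SE 0.13, adjusted p = 0.000323, 2.54-fold). So was SESN2 (log2 difference 0.87, SE 0.08, adjusted p = 0.000277, 1.83-fold). CHAC1 (log2 difference 0.92, SE 0.19, adjusted p = 0.00874, 1.89-fold) and DDIT4 (log2 difference 0.29, SE 0.07, adjusted p = 0.0165, 1.23-fold) also passed. PPP1R15A did not (log2 difference 0.25, SE 0.14, adjusted p = 0.187): it was lower in KO-labelled than in WT replicate 1 and higher in replicates 2 and 3. In amino acid synthesis, ASNS was higher in the KO-labelled libraries (log2 difference 1.10, SE 0.18, adjusted p = 0.00284, 2.15-fold), with 8639 and 11978 in KO-labelled replicates 2 and 3 against 3708 and 4020 in WT replicates 2 and 3. CTH (log2 difference 0.87, SE 0.09, adjusted p = 0.00047, 1.83-fold), PCK2 (log2 difference 0.66, SE 0.08, adjusted p = 0.00116, 1.58-fold) and PSPH (log2 difference 0.60, SE 0.08, adjusted p = 0.00107, 1.52-fold) passed as well. The first enzymes of serine synthesis did not: PHGDH had a log2 difference of 0.43 (adjusted p = 0.127) and PSAT1 of 0.26 (adjusted p = 0.0893). PHGDH, PSAT1, PPP1R15A and SHMT2 each passed as higher when KO-labelled replicate 1 or WT replicate 1 was left out, with log2 differences of 0.79, 0.41, 0.47 and 0.24. Both fits rest on replicates 2 and 3, and over all 16658 genes they called 3733 and 3791 higher. In the fit of group means no effector or amino acid enzyme passed. Adjusted p was from 0.264 to 0.851 for the effectors and from 0.246 to 0.787 for the enzymes.

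ALDH1L2 showed the widest gap between genotypes. Its KO-labelled values of 2852, 477.5 and 731.9 all lay above the WT values of 296.4, 52.0 and 5.2, a pattern of no overlap that 15.2% of all genes showed. Its log2 difference was 4.44 with an adjusted p of 0.1 in the fit of group means and 0.00229 with the block. The size rests in part on the low WT replicate 3 value: without that library the log2 difference was 2.99 without the block and 3.22 with it. INHBE was higher at every number, with 4350 against 2433 in replicate 1, 676 against 203 in replicate 2 and 1000.2 against 223 in replicate 3, KO-labelled against WT. With the block it passed (log2 difference 1.58, SE 0.23, adjusted p = 0.00189, 2.98-fold), and in the fit of group means it did not (adjusted p = 0.459). SHMT2 (log2 difference 0.11, SE 0.09, adjusted p = 0.356) and MTHFD2 (log2 difference -0.28, SE 0.14, adjusted p = 0.155) did not pass with the block. MTHFD2 passed as lower without KO-labelled replicate 3 (-0.43, adjusted p = 0.038) or WT replicate 3 (-0.43, adjusted p = 0.0371). Both fits rest on replicates 1 and 2, and over all 16658 genes they called 2236 and 2197 lower.

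Of the ER genes, PDIA4 was higher in all 3 KO-labelled libraries than in any WT library, with 10277, 14213 and 12891.5 against 6717, 8717 and 8039. With the block, which is the fit used below unless another is named, PDIA4 passed (log2 difference 0.67, SE 0.06, adjusted p = 0.000214, 1.59-fold). It missed the threshold in the fit of group means (adjusted p = 0.0543) and passed it there under quantile normalisation (0.79, adjusted p = 0.00605). CRELD2 was higher at each number, though KO-labelled replicate 1 lay below WT replicate 2 (log2 difference 0.69, SE 0.12, adjusted p = 0.00401, 1.61-fold). HSP90B1 was lower, the KO-labelled values of 34847 to 43247 lying below the WT values of 44409.5 to 48721 (log2 difference -0.24, SE 0.06, adjusted p = 0.021, 1.18-fold lower); 14.7% of all genes had no overlap in that direction. That call was lost without KO-labelled replicate 2 (adjusted p = 0.094), KO-labelled replicate 3 (0.102), WT replicate 2 (0.0963) or WT replicate 3 (0.101). HSPA5 did not pass (log2 difference -0.08, SE 0.06, adjusted p = 0.314), with a 95% interval of -0.21 to 0.06; it was called lower, with a log2 difference of -0.11, when either replicate 1 library was left out (adjusted p = 0.0382 without KO-labelled, 0.0365 without WT). CALR had a log2 difference of -0.01 with an interval of -0.14 to 0.12, and HERPUD1 of -0.08 with an interval of -0.28 to 0.11. XBP1, DNAJB9 and SEL1L did not pass (adjusted p = 0.0612, 0.0604 and 0.0962) but were called higher when either replicate 1 library was left out, by 0.17, 0.68 and 0.32. SDF2L1 (adjusted p = 0.078) was called higher, by 0.42, when either replicate 3 library was left out, and PDIA6, MANF and HYOU1 had adjusted p from 0.419 to 0.958. HYOU1 turned to 0.16 and was called higher without KO-labelled replicate 1 (adjusted p = 0.0334) or WT replicate 1 (0.0325), and PDIA6 was called higher under quantile normalisation (0.19, adjusted p = 0.0269). Both fits without a replicate 1 library rest on replicates 2 and 3. Over all 16658 genes they called 3733 and 3791 higher, and 4086 and 4041 lower. Without a replicate 3 library 2332 and 2401 were higher, and under quantile normalisation 3210. In the fit of group means the adjusted p was 0.156 for CRELD2 and 0.37 for HSP90B1.

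**Figure D4:**
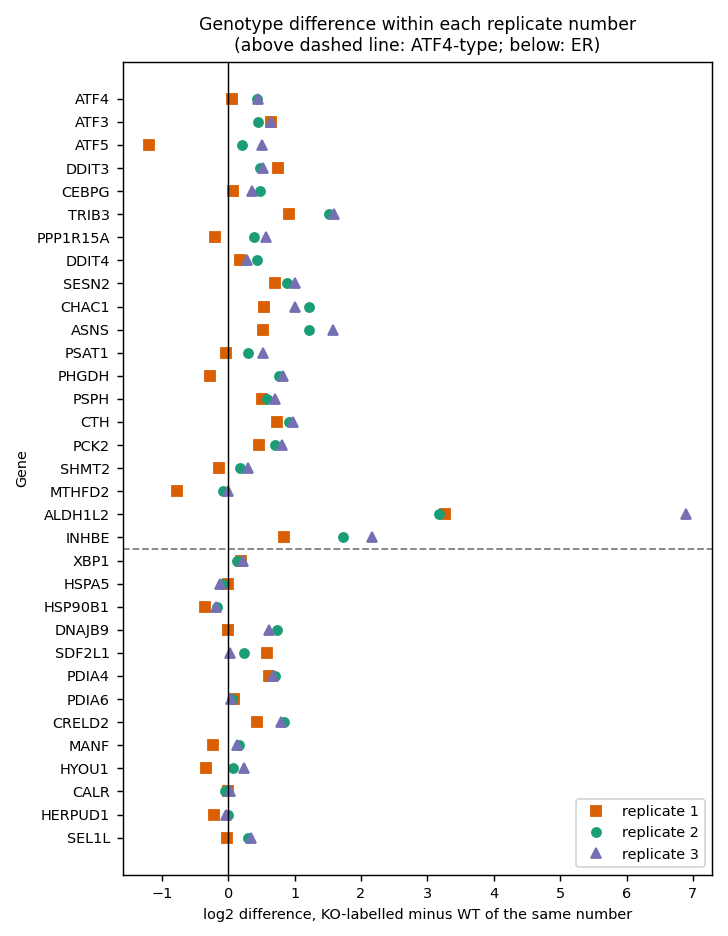
Points give the log2 difference of the KO-labelled minus the WT library of the same replicate number for each gene, with squares for replicate 1, circles for replicate 2 and triangles for replicate 3; ATF4-type genes are above the dashed line and ER genes below it. The ATF4-type medians are 0.49, 0.53 and 0.67, with 14, 19 and 20 of the 20 genes above 0; the ER medians are -0.01, 0.13 and 0.13.

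Number by number, the median KO-labelled minus WT difference of the ATF4-type genes was 0.49, 0.53 and 0.67 at replicates 1, 2 and 3, with 14, 19 and 20 of 20 genes above 0. The ER medians were -0.01, 0.13 and 0.13. Whether the genotype difference itself changed between replicate 1 and the others was tested by an interaction term, which has 2 residual degrees of freedom. No member passed (0 of 33; 5 of 16658 genes or 0.03% did by limma, 0.012% higher and 0.018% lower), and 13 members had an unadjusted p below 0.05, of which 10 were ATF4-type; over all genes 1290 of 16658 did. The median interaction was -0.41 for ATF4-type genes and -0.17 for ER genes, so the KO-labelled minus WT difference leaned lower in replicate 1. A lower difference can also be a reversed one, as for ATF5, with -1.19 in replicate 1 against 0.21 and 0.51 in replicates 2 and 3. MTHFD2 (-0.73, adjusted p = 0.522), ATF5 (-1.55, adjusted p = 0.544) and PPP1R15A (-0.66, adjusted p = 0.549) had the smallest p; each had a WT replicate 1 value above the KO-labelled one. TRIB3 (-0.64, adjusted p = 0.557) was higher in the KO-labelled library in both parts, with a log2 difference of 0.92 in replicate 1, 1.52 in replicate 2 and 1.59 in replicate 3.

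Some members lie on chromosomes whose genes shifted as a whole between genotypes. On chromosome 20, where TRIB3 lies (chr20:362835-397559, plus strand; GENCODE 29, GRCh38), the median log2 difference over 393 tested genes was 0.54. With that median removed, TRIB3 had 0.79 (adjusted p = 0.00531 with the block). On chromosome 7, the median over 834 tested genes was 0.39. ASNS (chr7:97852118-97872542, minus strand) then had 0.69 (adjusted p = 0.028), PDIA4 (chr7:149003062-149028641, minus strand) had 0.26 (adjusted p = 0.0169), and PSPH lost its call (0.19, adjusted p = 0.102). DNAJB9, also on chromosome 7, had 0.04 in place of 0.45 (adjusted p = 0.88). The part of these shifts in the 5 genes' differences was not tested further. ALDH1L2 (chr12:105019784-105084577, minus strand) and DDIT3 (chr12:57516588-57521737, minus strand) lie on chromosome 12. Several members overlap a gene on the opposite strand: ALDH1L2 overlaps C12orf45, DDIT3 overlaps MARS and MBD6, ATF5 overlaps IL4I1 and NUP62, PCK2 overlaps NRL, and SHMT2 overlaps NDUFA4L2. Likewise CRELD2 overlaps ALG12, DNAJB9 overlaps PNPLA8 and THAP5, HSP90B1 overlaps C12orf73, MTHFD2 overlaps SLC4A5, and PDIA6 overlaps ATP6V1C2. The library kit keeps strand but the strand setting of the counting is not given, so reads of these opposite-strand partners cannot be told apart with certainty. On their own strand, DDIT3 overlaps the protein-coding AC022506.1, ASNS overlaps AC079781.5, and HERPUD1 overlaps AC012181.1 and AC012181.2. Some members also overlap small RNA genes on their own strand. Strand does not separate the reads of same-strand partners. ATF4, ASNS, PSAT1, PSPH, MTHFD2 and XBP1 have pseudogene copies that could share reads.

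Other genes of the same pathways were counted from wider lists, to be read against the 23.5% of all genes called higher and 24.8% called lower in replicate 1. Of 24 tested further ATF4 targets, 18 were higher and 2 lower in replicate 1, with a median log2 difference of 0.85, whereas 28 further ER folding genes gave 9 higher and 9 lower (median 0.12). GDF15, a secreted stress hormone, had 13406, 3604 and 4584 in the KO-labelled libraries and 9699.6, 2296 and 2400.2 in the WT libraries. GDF15 was 3.69-fold higher in replicate 1 (log2 difference 1.88, SE 0.10, adjusted p = 0.000123). NIBAN1, a stress-induced protein, had 8628, 3694.5 and 3679 in the KO-labelled libraries and 9909, 4942 and 4804 in the WT libraries (log2 difference 1.13, SE 0.07, adjusted p = 0.00015). Degradation genes gave 7 higher and 7 lower of 24 (median -0.12): EDEM1, a lectin that sends glycoproteins to degradation, was higher in replicate 1 (log2 difference 1.16, SE 0.09, adjusted p = 0.00018), and VCP, the ATPase that extracts them, was lower (log2 difference -1.06, SE 0.06, adjusted p = 0.000128). Translocation and export genes gave 3 higher and 10 lower of 22 (median -0.18), with SEC61B, a subunit of the translocation channel, lower (log2 difference -0.76, SE 0.08, adjusted p = 0.000435). Of the 10 sensors and linked factors, 3 were higher and 2 lower; ERN1, which encodes IRE1, had 2716, 1111 and 1143 in the KO-labelled libraries and 2182, 968 and 932 in the WT libraries. ERN1 was 2.35-fold higher in replicate 1 (log2 difference 1.23, SE 0.09, adjusted p = 0.000171). The 19 eIF2 kinases and translation factors gave 4 higher and 8 lower (median -0.02), and EIF2S1, the eIF2 subunit that the kinases phosphorylate, was lower (log2 difference -1.15, SE 0.09, adjusted p = 0.00019, 2.22-fold lower). The 16 further genes of serine, glycine and folate metabolism gave 6 higher and 6 lower (median -0.14).

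Between genotypes, without the block, where 5.37% of all genes were called higher and 4.96% lower, the wider lists gave these calls: 2 higher and 0 lower of 24 ATF4 targets, 1 and 1 of 28 ER folding genes, 1 and 1 of 24 degradation genes, 2 and 0 of 22 translocation genes, 2 and 1 of 10 sensors, 0 and 1 of 16 serine and folate genes, and 0 of 19 eIF2 genes by limma (7 at an unadjusted p below 0.05). With the block the ATF4 targets gave 9 higher and 6 lower, the ER folding genes 8 and 6, and the eIF2 genes 4 and 7. The degradation genes gave 5 and 4, the translocation genes 5 and 6, the sensors 5 and 1, and the serine and folate genes 3 and 6. Over all genes, 19.7% were higher and 20.0% lower in that fit. The median log2 difference was 0.08 for the further ATF4 targets (14 of 24 above 0) and -0.02 for the ER folding genes (13 of 28). It was 0.58 for the 20 ATF4-type members (18 above 0) and -0.02 over all genes. Besides the genes described below, the unblocked calls were CREB3L2, SEC11A, SEC23B, WFS1 and SLFN5 (higher) and FAF2 and SFXN1 (lower). WFS1 and SLFN5 fell outside the rule for named genes, with means under 100 in both groups, and are listed after their values were seen. With the chromosome median removed, CREB3L2 (0.35, adjusted p = 0.223), SEC23B (0.03, 0.92), FAF2 (-0.13, 0.649) and SFXN1 (-0.16, 0.647) were no longer called. With 1 library left out at a time, FAF2 lost its call in 4 of 6 fits. CREB3L2, SEC11A, SEC23B and SFXN1 lost theirs in 5 of 6. GRB10, an adaptor of insulin signalling, had 14288, 10379.9 and 10733 in the KO-labelled libraries and 7621, 5228 and 5246 in the WT libraries (log2 difference 0.98, adjusted p = 0.0285). RCN1, a calcium-binding ER protein, had 3741, 3247 and 3042 in the KO-labelled libraries and 2071, 1400.1 and 1623 in the WT libraries (log2 difference 0.99, adjusted p = 0.0166). EDEM2, a mannosidase of ER degradation, had 1579.7, 1274 and 1199 in the KO-labelled libraries and 555, 485 and 484.5 in the WT libraries (log2 difference 1.40, adjusted p = 0.00346). CANX, the membrane lectin chaperone calnexin, was lower with 41911, 41241 and 38682 in the KO-labelled libraries and 62911, 65496 and 60156 in the WT libraries (log2 difference -0.63, adjusted p = 0.0209), and NFE2L2, the NRF2 factor that PERK can activate, was lower with 3663, 3831 and 3835 in the KO-labelled libraries and 5538, 5090.1 and 5218 in the WT libraries (log2 difference -0.48, adjusted p = 0.0346). GRB10 lies on chromosome 7, EDEM2 on chromosome 20 and CANX on chromosome 5; with the chromosome median removed the log2 difference was 0.57 for GRB10 (adjusted p = 0.182), 0.84 for EDEM2 (adjusted p = 0.0449) and -0.03 for CANX (adjusted p = 0.938). With KO-labelled replicate 2 or 3 or WT replicate 2 or 3 left out, GRB10, RCN1, CANX and NFE2L2 were no longer called (adjusted p from 0.0583 to 0.141). The same held for GRB10 (0.069), RCN1 (0.0516) and NFE2L2 (0.0849) without KO-labelled replicate 1, while EDEM2 was called with each library left out. NFE2L2 was also not called with the chromosome median removed (adjusted p = 0.0709), with equal sums (0.102), under quantile normalisation (0.0745) or without the trend (0.082).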

How the data were processed

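RNA came from 3 KO-labelled and 3 WT libraries of K562 cells. The kit was stranded and selected polyadenylated RNA, with 500 ng going into each library and an integrity number of 10 throughout, per the labels' protocols. Per the submitters' processing notes, the tools were STAR 2.7.2b, FastQC 0.11.7, Salmon 1.1.0, SAMtools, R 3.6.1 and DESeq2 1.26.0, on GRCh38; the notes give no role or order. The authors deposited 1 signal per gene and library, a normalised read count that is neither a whole read nor a log value. A search for the value of 1 read placed 35.5% to 53.5% of the values under 20 in a library within 0.05 of a common step, too few to recover reads. Depth is therefore unknown and no count model was used. The lowest gene mean in the table is 3.38. A name table gave symbols for 19392 of 19498 identifiers, and GENCODE 29 gave positions for 19112.

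The test was limma 3.58.1 (R 4.3.3) with an intensity trend on log2(value + 1). A gene entered when at least 3 of the 6 libraries reached 10, which 16658 did, and Benjamini-Hochberg adjustment ran over all of them at a threshold of 0.05. Differences are KO-labelled minus WT, or replicate 1 minus the mean of replicates 2 and 3 with genotype and number in the model. A fold is the log2 difference put back on the linear scale, without its sign, and understates changes of low genes. TNK2 was tested by an exact permutation. Deviations from group means of same-numbered KO-labelled and WT libraries correlated across genes with r of 0.6989, 0.521 and 0.3416 for replicates 1, 2 and 3. All exceed the limit of 0.1, so the number was also fitted as a block. KO-labelled 2 with WT 3 gave 0.2573 and KO-labelled 3 with WT 2 gave 0.2811, so those numbers are less clearly told apart.

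Alternatives were a pseudocount of 5, no filter, equal library sums, quantile normalisation, no trend, chromosome centring and left-out libraries. On simulated data with 100 genes at each size, a log2 change of 1 was found for 64% (genotype), 62% (genotype with block) and 59% (replicate 1). A change of 2 was found for 88%, 83% and 80%, with 10, 10 and 13 false calls among 16658 genes. The simulated noise came from the fit that already removes replicate number, and the genotype simulation without the block held no replicate differences. The real fit of group means carries the gap between replicate 1 and the others as error. Its simulated shares therefore do not say how many changes that fit could find here. The 35 genes, the role lists and the choice of replicate 1 were made with earlier results of these data known. All 35 were named; of each wider list, up to 4 genes by smallest genotype p whose group mean reached 100 in either genotype, and up to 2 by smallest replicate 1 p were eligible, and a part of them is described. Libraries left out in the replicate 1 and interaction contrasts, and the block combined with other settings, were added after the data were seen.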

Additional observations from a re-analysis of the deposited data

How the results depend on the processing

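With the block 6612 genes passed in place of 1721, 14 ATF4-type genes in place of 0, and 2 ER genes higher and 1 lower in place of 0 and 0. Without both replicate 1 libraries the counts were 4731 genes, 13 ATF4-type and 4 ER genes higher. Scaling libraries to the same sum gave 1 ER gene higher and medians of 0.68 (ATF4-type) and 0.16 (ER); quantile normalisation gave 1 and an ER median of 0.19; chromosome centring gave an ATF4-type median of 0.48; and the ER median without replicate 1 was 0.15. Leaving out 1 library at a time gave 726 to 2183 genes, 0 to 3 ATF4-type and 0 to 1 ER genes higher, and medians of 0.15 to 1.00 (ATF4-type) and 0.02 to 0.22 (ER). Over all 16658 genes, 1056 were called higher with equal sums and 1007 with quantile normalisation.

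Within the block, 4394 genes passed without the intensity trend. The ER genes called higher numbered 6 with equal sums, 5 with quantile normalisation, 6 without replicate 1 and 2 to 6 with 1 library left out; those called lower numbered 0, 0 and 0 (equal sums, quantile normalisation, no trend), 2 without replicate 1 and 0 to 2 with 1 library left out. ATF4-type genes called higher numbered 10 to 19, and lower 0 to 1, with 1 library left out. Over all 16658 genes, 4193 were higher and 2379 lower with equal sums, and 3210 and 3026 with quantile normalisation. The counts were 2302 and 2092 without the trend, and 3784 and 4122 without replicate 1. With 1 library left out, 4568 to 7832 genes passed in either direction. PSPH lost its call under chromosome centring, and ATF4, CEBPG, DDIT4 and HSP90B1 lost theirs without the trend.

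For replicate 1 against the others, all 20 ATF4-type calls held under every setting run but the fit without the trend, where ALDH1L2 had an adjusted p of 0.0772. Over all 16658 genes, 2982 were called lower with equal sums, 3969 with quantile normalisation and 3097 without the trend. The ER genes called lower numbered 3 with equal sums, quantile normalisation or no trend, and 3 to 5 with 1 library or replicates 2 or 3 left out; the ER median was 0.24 with equal sums and -0.10 to 0.10 with libraries left out. The interaction gave 5 genes in all and 0 with a replicate 2 or 3 library left out.

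Some directions turned. Between genotypes, with and without the block, ATF5 was 0.36 without replicate 1, HSPA5 0.02 and 0.05, HYOU1 0.09 and 0.11, and CALR 0.09 and 0.14 with equal sums and quantile normalisation. HYOU1 was 0.16 without replicate 1, CALR 0.04 after chromosome centring, MANF -0.00 with quantile normalisation and HERPUD1 0.02 with equal sums. In replicate 1 against the others, HSP90B1 was 0.02 with quantile normalisation and PDIA6 0.02 and 0.05 with equal sums and quantile normalisation. With 1 library left out, the genotype differences that turned ranged as follows: ATF3 -0.11 to 1.22, ATF5 -0.83 to 0.89, PPP1R15A -0.06 to 0.78, DDIT4 -0.28 to 0.93, PHGDH -0.06 to 1.25, SHMT2 -0.06 to 0.41, MTHFD2 -0.52 to 0.19, HSPA5 -0.15 to 0.02, SDF2L1 -0.01 to 0.45, MANF -0.03 to 0.12, HYOU1 -0.20 to 0.22, CALR -0.17 to 0.15, HERPUD1 -0.48 to 0.38, SEL1L -0.13 to 0.65. With the block they were ATF5 -0.49 to 0.36, MANF -0.05 to 0.15, HYOU1 -0.13 to 0.16, CALR -0.03 to 0.01. For replicate 1, with 1 library or both libraries of replicate 2 or 3 left out, HSPA5 ranged from -0.03 to 0.24 and MANF from -0.10 to 0.28. The cause of these changes was not tested.

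Depth is unknown, so no counting interval is given. Each group has 3 libraries, the interaction leaves 2 residual degrees of freedom, and leaving out a library of a numbered pair under the block removes that pair.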
